A study of Mus musculus with 21 samples.

Results

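The peaks described here are p53 antibody peaks of the mouse genome, away from promoters, whose interval overlaps a repeat that is not an LTR. They were taken from the deposited list of WT-specific p53 peaks by joining its repeat annotation to its gene feature annotation. A peak was kept if at least 1 annotated repeat overlapped it, none of those repeats belonged to the LTR class, and its feature was neither promoter nor 5′ UTR. This left 360 of 2127 WT-specific peaks. The list itself had already been selected for WT, by a rule not found in the sources used here. Within the list, overlap with knockout peaks played no part in the choice. Length entered the choice indirectly, since a longer interval meets a repeat more readily. No annotated overlap in the 360 peaks was under 50 bp, so peaks called repeat-free may hold shorter ones.

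Binding was mapped by CUT&RUN, in which an antibody directs a nuclease to cut out and release the DNA around a chromatin protein. The cells were ID8, an immortalized, untreated line from the ovarian surface epithelium of C57BL/6 mice. The p53 antibody was used on 2 samples of genotype Trp53-/- (KO) and 2 samples of genotype Trp53+/+ (WT). The series has 21 samples, and the others, with antibodies to histone marks or with IgG, were not analysed here. The sources used here do not say whether the KO line is a single clone. The deposited lists hold 9784 KO peaks and 6811 WT peaks, 1 list per genotype, with no score, height or read depth. No result below therefore has a replicate check, and a peak's length is the one size the files give. Tests across peaks describe the lists, not the genotypes. Peak positions do not measure expression, so the labelled cell type could not be checked against its markers.

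The transcription factor p53 is stabilised by DNA damage and other stress and switches on genes for cell cycle arrest, cell death, metabolism and repair. It binds as a tetramer to a pair of palindromic decamers. Repeats differ in how they arise. SINEs and LINEs are retrotransposons that copy themselves through RNA, SINEs being short and relying on the LINE machinery. DNA transposons move by cutting and pasting, and simple repeats are tandem runs of a short unit. LTR elements are relics of retroviruses, with regulatory sequence in their terminal repeats. In the mouse, the B1, B2 and ID families are rodent SINEs, while MIR and L2 are old families shared by mammals.

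Sequence could be shown for 1 of the 360 peaks, the one that reached into an available RefSeq start-site window. Such a window runs from 250 bases before to 50 bases after a gene's start. The peak, on chromosome 10 from 119001328 to 119001534, measured 207 bp and was annotated intergenic. It reached the window of Gm33624, a gene model on the minus strand. The shared stretch of 118 bases is shown because 75 of them belong to a PB1D10 element, a SINE name carried by 10 of the peaks. It is the plus strand of GRCm38.p6, as given by RefSeq, with the PB1D10 bases in capitals.
chr10:119001328-119001445: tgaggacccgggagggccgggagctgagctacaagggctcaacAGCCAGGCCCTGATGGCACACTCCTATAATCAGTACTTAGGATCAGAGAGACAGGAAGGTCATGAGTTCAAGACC
The p53 half-site, searched on both strands, had no match in this stretch, and 3.15% of 32846 RefSeq windows held a match in a stretch of the same position and length. The CATG core occurred 1 time, as it did at least 1 time in 32.6% of windows. The CAAG core occurred 2 times and CTTG, its reverse complement, 0 times, where 62.2% of windows held either. GC content was 55.9%, against a median of 52.5% over the windows. These letters describe 1 window, and the rest of the peaks were not searched.

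SINEs were the most frequent repeats. Among the 360 peaks, 155 (43.1%) carried SINEs alone, 74 (20.6%) LINEs alone, 65 (18.1%) simple repeats alone and 24 (6.67%) DNA transposons alone. Low complexity stretches alone accounted for 16 peaks (4.44%), copies of small RNA genes for 5 (1.39%), satellites for 4 (1.11%) and combinations of classes for 17 (4.72%). A single repeat was annotated in 313 peaks, and the other 47 carried 2 to 4. The sources used here gave no genome-wide repeat annotation, so whether any class is more frequent than in the genome was not tested.

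By family, the B1-type SINEs (listed as Alu) were in 69 peaks, L1 in 58, SINE B4 in 51, SINE B2 in 33, MIR in 29, L2 in 20, hAT-Charlie in 16 and TcMar-Tigger in 8. Single names were thinly spread. The 417 repeat entries bore 115 names, of which 52 occurred in 1 peak only and 29 in at least 5. The most frequent were the tandem repeat (TTTC)n in 25 peaks, ID_B1 in 20, B3 in 19, RSINE1 in 17, (GAAA)n in 16, B4A in 12 and PB1D10 in 10. In LTR peaks outside promoters, RLTR1B alone was in 400 of 928 peaks and MMERGLN_LTR in 257.

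The peaks lay in introns in 179 cases (49.7%) and between genes in 165 (45.8%), with 14 in 3′ UTRs and 2 in exons. Among intron and intergenic peaks, 179 of 344 were intronic, 52.0% (95% exact binomial interval 46.6 to 57.4). The share was 26.8% in LTR peaks outside promoters (243 of 907), an odds ratio of 2.96 (two-sided Fisher's exact test, adjusted p = 4.19e-16 over the 9 comparisons made). In repeat-free peaks outside promoters it was 58.9% (251 of 426), with an odds ratio of 0.756 and an adjusted p of 0.0653. That last difference passed the threshold once exon and 3′ UTR peaks joined the intronic side (54.2% against 62.5%, Fisher's exact test, adjusted p = 0.0239). All 7 B1_Mus1 peaks were intergenic, whereas 13 of 17 RSINE1 peaks were intronic.

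Start-site entries were incomplete on the chromosomes that had any. The Trp53inp1 span lies 2888 bp from one of the peaks, yet that peak's nearest entry was 355.6 kb away. Distances below are therefore upper limits, and counts of near peaks lower limits. Distance to the nearest RefSeq start site with an entry had a median of 26.2 kb over 352 peaks (95% interval 22.6 to 31.8). It was 33.4 kb in LTR peaks (28.5 to 38.1) and 25.5 kb in repeat-free peaks (22.8 to 29.8). Within 5 kb of such an entry lay 50 of the 352 peaks (14.2%), against 10.5% of LTR peaks and 16.7% of repeat-free peaks. Within 1 kb lay 7 (1.99%), against 0.884% of LTR peaks and 3.26% of repeat-free peaks. Those 7 were next to Nhej1, a factor of non-homologous end joining, Pafah2, a phospholipase that removes platelet-activating factor, and 5 gene models, Gm41934, Gm33624, Gm31005, Gm13816 and Gm32942.

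Lengths ran from 189 to 2641 bp, with a median of 442 bp (95% interval 416 to 471) and quartiles of 312 and 638 bp. At least 500 bp was reached by 150 of the 360 peaks, 41.7%, where 43.0% of all WT-specific peaks did. In repeat-free peaks outside promoters the share was 24.4% (114 of 467), a difference given without a test because longer peaks leave the repeat-free group by its definition. It turned round when repeats had to cover 50% or more of the peak (16.7% against 24.4%). Against LTR peaks outside promoters, at 51.0% (473 of 928), the share was lower (odds ratio 0.687, Fisher's exact test, adjusted p = 0.00429). This difference lost its call without the TTTC and GAAA tract peaks described further on (45.8% against 51.0%, exact test, adjusted p = 0.134), without peaks on simple and low complexity repeats alone (46.2% against 51.0%, adjusted p = 0.193) and at a length of 1000 bp (6.39% against 7.44%, adjusted p = 0.549).

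**Figure D1:**
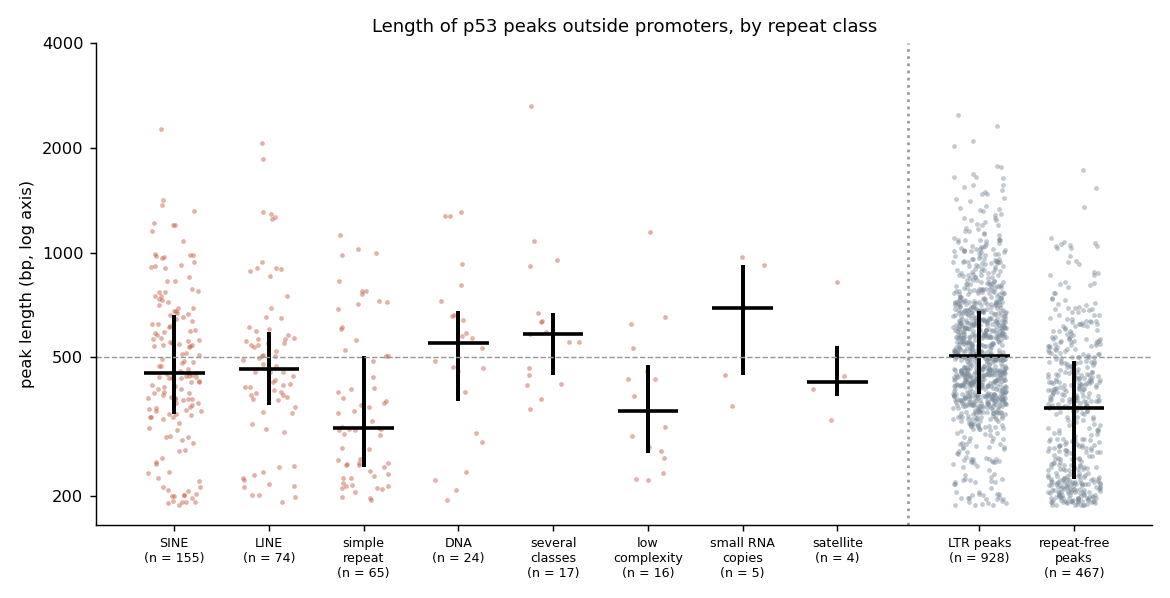
Length in bp (log axis) of each of the 360 peaks by the class of its repeats, with LTR and repeat-free peaks outside promoters to the right of the dotted line. Each point is 1 peak, horizontal bars are medians, vertical bars run from the lower to the upper quartile, and the dashed line marks 500 bp; the simple repeat median of 314 bp sits below those of SINEs (450 bp), LINEs (463 bp) and DNA transposons (549.5 bp).

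Length varied with the repeat class. The median was 549.5 bp for DNA transposon peaks (95% interval 399 to 661), 463 bp for LINE peaks (412 to 534), 450 bp for SINE peaks (416 to 515), 352 bp for low complexity peaks (257 to 533) and 314 bp for simple repeat peaks (273 to 374). Peaks with several classes had a median of 583 bp (444 to 670). The intervals of SINE, LINE and DNA transposon peaks overlap, and that of simple repeat peaks ends below where all 3 of those intervals begin.

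Repeats covered a minor part of most of these peaks. The covered share had a median of 34.1% (quartiles 18.3 and 58.3), against 69.0% in LTR peaks outside promoters. The elements themselves were short, with a median of 154 bp against 446 bp in the LTR peaks. Repeats covered 50% or more of 108 of the 360 peaks, 30.0%, against 791 of 928 LTR peaks, 85.2% (odds ratio 0.0742, Fisher's exact test, adjusted p = 2.42e-79). The midpoint of the peak, used as a stand-in for the summit that the lists do not give, lay inside a repeat in 149 of 360 peaks, 41.4%, against 829 of 928 LTR peaks, 89.3% (odds ratio 0.0843, exact test, adjusted p = 5.14e-67). In the other 211 peaks the midpoint lay outside every annotated repeat, some of them with repeats on both sides of it. Element length differed between the groups, and no comparison at matched element length was made. By class, the midpoint was inside a repeat in 58.5% of simple repeat peaks, 41.9% of LINE peaks, 36.1% of SINE peaks and 29.2% of DNA transposon peaks.

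Where in an element the midpoint fell also differed among names. Positions were counted in bp from the 5′ end of the element on its own strand, negative ones lying before it. Among the non-LTR names, the middle 50% of midpoints spanned 195.5 bp for B3, 231 bp for ID_B1, 261 bp for RSINE1 and 137 bp for B4A. In LTR peaks outside promoters the same width was 46 bp for RLTR1B, from 75 to 121 bp, and 57.8 bp for MMERGLN_LTR. The ID_B1 midpoints lay inside the element in 4 of 20 cases, those of RSINE1 in 3 of 18, and those of B3 in 11 of 19. Narrower placement was seen in PB1D10, with a width of 55.9 bp around a median of 17.8 bp in 10 peaks, and in B1_Mur4, with 42 bp around 16 bp in 5 peaks. The narrowest was Lx7, an L1 name, whose 5 peaks had a width of 19.5 bp around 498.5 bp, with 2 of the 5 midpoints inside. Annotated Lx7 pieces differ in length, from 276 to 906 bp, so equal distances from the annotated end need not mean the same base of the element. No test was made across names.

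**Figure D2:**
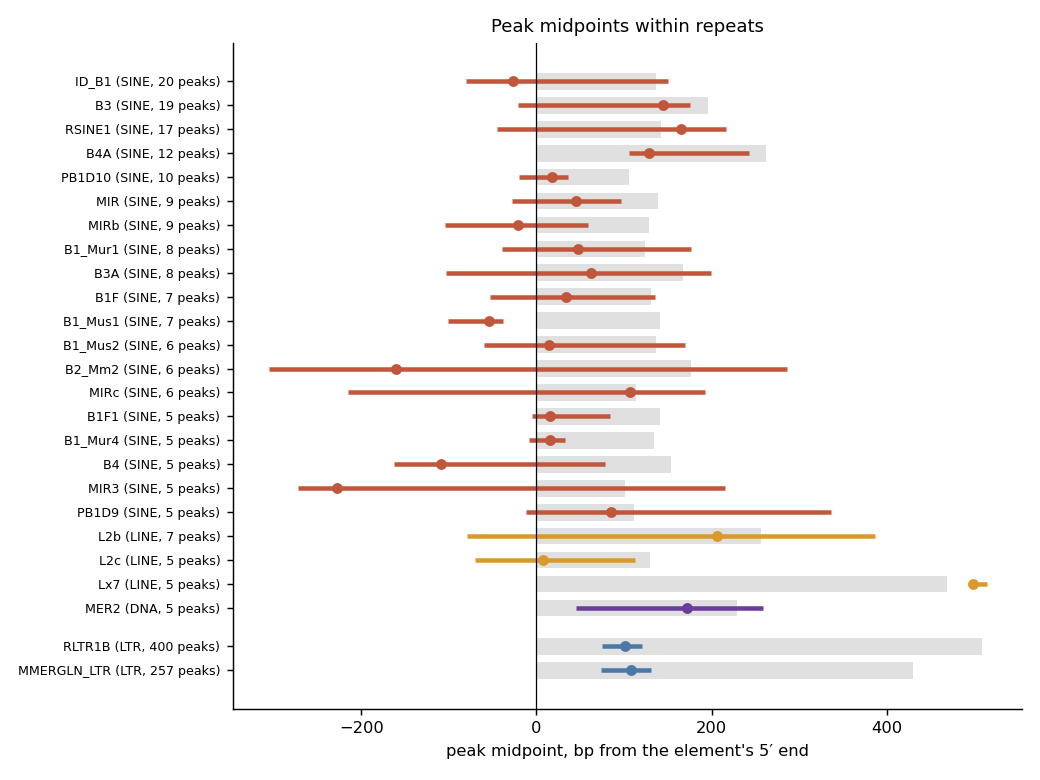
Position of the peak midpoint in bp, counted from where the annotated element begins on its own strand, for transposon names in at least 5 of the 360 peaks and, at the bottom, for the 2 most frequent LTR names. Dots are medians, coloured lines run from the lower to the upper quartile, and grey bars show the median element length; the RSINE1 line spans 261 bp and that of RLTR1B 46 bp.

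Tandem tracts of TTTC or GAAA formed a group that was singled out after its values were seen, and it is described with no test. The unit GAAA is the reverse complement of TTTC, so both names denote the same double-stranded sequence. Of the 360 peaks, 41 carried such a tract, 25 named TTTC and 16 named GAAA, with none carrying both. Their median length was 275 bp (95% interval 245 to 314), against 467 bp (441 to 508) in the other 319 peaks, and 4 of the 41 reached 500 bp. Repeats covered a median of 91.1% of the tract peaks, against 29.6% of the others. Of the 41 tract peaks, 18 were covered by annotated repeats from end to end, and 34 had their midpoint in a repeat. Among the 18 was a peak of 444 bp on chromosome 12, with a CT-rich stretch of 164 bp between its TTTC tracts. The other 32 peaks with simple repeats were unlike them, with a median length of 554 bp and a median cover of 14.1%.

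No tract peak had a close WT-specific neighbour at the 10 kb limit, though not all were far apart. The tract peaks lay on 16 chromosomes, with 6 on chromosome 1 and 6 on chromosome 12. The chromosome 12 peaks starting at 27690495 and 27715411 were 24355 bp apart. Of the 41, 26 lay between genes, 14 in introns and 1 in a 3′ UTR. None of the 41 had another WT-specific peak within 10 kb, which allows a share of up to 8.60% (upper end of the 95% exact binomial interval), whereas 48 of the other 319 did (15.0%). KO peaks overlapped 3 of the 41 (7.32%) and 24 of the other 319 (7.52%). Outside the 360 peaks, such tracts were in 10 of 88 promoter and 5′ UTR peaks on non-LTR repeats, and in 0 of 928 and 0 of 68 LTR peaks outside and inside promoters. LTR peaks seldom carried a simple repeat of any kind, with 2 of 996. A tract peak of 301 bp on chromosome 3, from 104798654 to 104798954, lay in an intron of Mov10, an RNA helicase that restrains retrotransposons, and was wholly tract. Another, of 226 bp in an intron of the ephrin receptor gene Ephb2, was also wholly tract and shared 192 bp with a KO peak. Both tract peaks on chromosome Y carried a B1_Mus1 element of 141 bp, the one of 630 bp beside GAAA tracts and the one of 638 bp beside a TTTC tract. Chromosome Y held 25 WT-specific peaks, 4 of them among the 360, although the cells are labelled as an ovarian line. Whether the line carries a Y chromosome, or reads from elsewhere were placed there, was not tested.

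**Figure D3:**
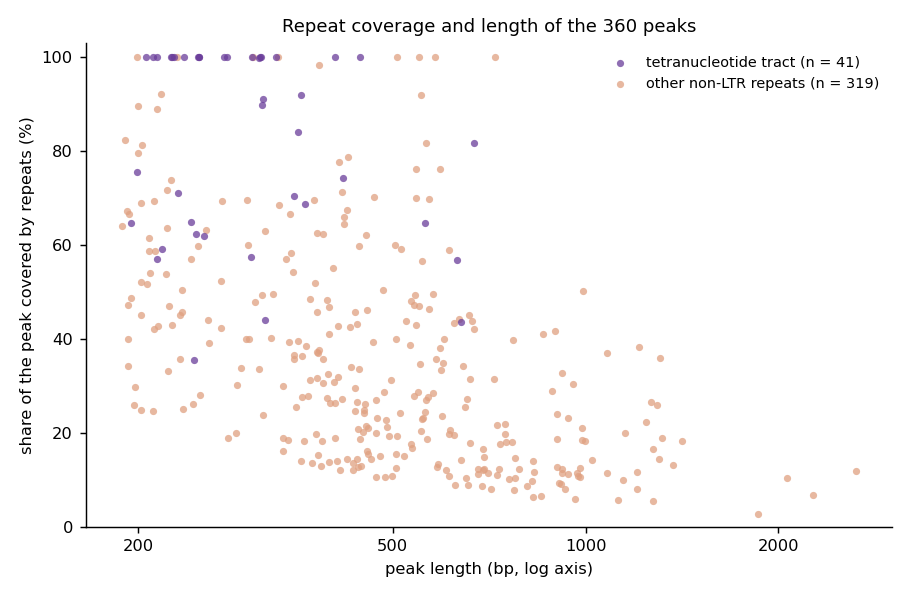
Share of each of the 360 peaks covered by annotated repeats (%) against its length in bp (log axis), 1 point per peak. Peaks with a TTTC or GAAA tetranucleotide tract (n = 41, dark) lie mostly at the short, fully covered corner, with medians of 275 bp and 91.1%; the other 319 (light) have medians of 467 bp and 29.6%.

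The KO list holds the peaks called with the same antibody in the Trp53-/- samples. What gives rise to them was not tested. The overlaps below are those left in a list already selected for WT. A KO peak overlapped 27 of the 360 peaks by at least 1 bp, 7.50% (95% exact binomial interval 5.00 to 10.7), where 3.34% of all WT-specific peaks were overlapped. Among the other 1767 WT-specific peaks the share was 2.49% (44 peaks, interval 1.82 to 3.33), an odds ratio of 3.18 (Fisher's exact test, adjusted p = 2.50e-05). By group it was 1.29% in LTR peaks outside promoters (12 of 928), 3.85% in repeat-free peaks outside promoters (18 of 467) and 6.82% in promoter and 5′ UTR peaks on non-LTR repeats (6 of 88). Against repeat-free peaks alone the odds ratio was 2.02 (exact test, unadjusted p = 0.0295, adjusted p = 0.0442). Repeat-free peaks are shorter, with a median of 359 bp against 442 bp, and no comparison with them at matched length was made. No call is read from that comparison. Peaks under a KO peak were longer, with a median of 613 bp against 436 bp in those without one, and among peaks of at least 500 bp the shares were 13.3% (20 of 150) against 4.45% (34 of 764) in the other WT-specific peaks. Where repeats covered 50% or more of the peak, the counts were 6 of 108 against 32 of 1530 (exact test, unadjusted p = 0.0349, adjusted p = 0.0489). Like the adjusted value against repeat-free peaks, this one depends on the p-values of the main comparisons, so no call is read from it.

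The KO peak took up at least 50% of the length in 15 of the 27 peaks, and the share ran from 8.74% to 98.0%. The smallest overlap was 188 bp, against 187 bp among the other WT-specific peaks. A (TTTC)n peak of 249 bp on chromosome 1 shared 244 bp with a KO peak, a peak of 297 bp in an intron of Lrp1b, a giant lipoprotein receptor, shared 281 bp, and a CT-rich peak of 1145 bp on chromosome 9 shared 1073 bp. By family, MIR peaks had an overlap in 6 of 29 cases, L2 peaks in 3 of 20, SINE B4 peaks in 5 of 51, B1-type peaks in 2 of 69 and L1 peaks in 1 of 58. The counts were 6 of 73 for simple repeats, 2 of 33 for SINE B2 and 2 of 19 for low complexity stretches. For hAT-Charlie they were 1 of 16, and for TcMar-Tigger 1 of 8. MIR peaks were also longer, with a median of 598 bp against 452 bp for B1-type and 461 bp for L1 peaks. No test was made across families. The remaining 333 peaks had no KO peak, and in 4 of these a KO peak lay within 500 bp. The nearest KO peak was at a median distance of 81.6 kb, against 163 kb for LTR peaks outside promoters and 57.2 kb for repeat-free ones. In the WT list, 355 of the 360 peaks had an interval with identical ends.

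**Figure D4:**
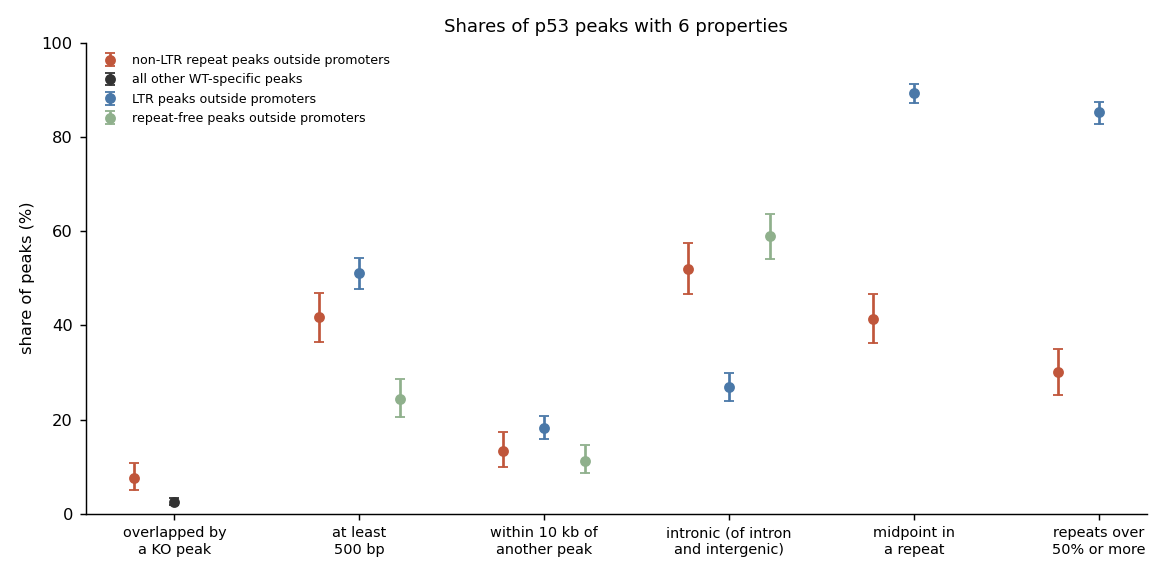
Share of peaks (%) with each of 6 properties, for the 360 non-LTR repeat peaks outside promoters (leftmost in each set) and the peaks they were compared with. Points are shares and bars 95% exact binomial intervals over peaks; the share overlapped by a KO peak is 7.50% against 2.49%, and the share with the midpoint in a repeat is 41.4% against 89.3% in LTR peaks.

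Some of the peaks had a WT-specific neighbour. Another WT-specific peak lay within 10 kb of 48 of the 360, 13.3%, where 15.1% of all WT-specific peaks had one. In LTR peaks outside promoters the share was 18.2% (169 of 928), an odds ratio of 0.691 (Fisher's exact test, unadjusted p = 0.0381, adjusted p = 0.0489). The adjustment counts the length comparison with repeat-free peaks, which is given without a test. No call is therefore read from this value near the threshold. The test also treats peaks as independent, although adjacent peaks of the same group count for each other. In repeat-free peaks outside promoters the share was 11.3% (53 of 467), an odds ratio of 1.20 (exact test, unadjusted p = 0.394). That direction turned within 50 kb and at 50% cover. Against LTR peaks, the adjusted p rose above 0.05 without the tract peaks (15.0% against 18.2%, exact test, adjusted p = 0.259). It also did so without peaks on simple and low complexity repeats alone (15.9% against 18.2%, exact test, adjusted p = 0.419). The same held within 50 kb (22.5% against 27.6%, exact test, adjusted p = 0.0747) and without chromosomes X, Y and M (13.5% against 18.0%, adjusted p = 0.0706). DNA transposon peaks had a neighbour in 7 of 24 cases. For 19 of the 48, the nearest neighbour was another of the 360, for 17 a repeat-free peak outside promoters, for 7 an LTR peak outside promoters, and for 5 a promoter or 5′ UTR peak.

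Lists of genes that p53 is known to switch on, and of other pathways, were read against these peaks. The p53 lists hold 62 genes. A peak lay in the RefSeq span of 6 of them or within 5 kb (9.68%), where 0.628% of 49997 RefSeq genes had one. By the deposited gene name the count was 3 of 62 (Ephx1, Lpin1 and Pvt1), against 0.312% of RefSeq genes. The 6 were 2 of 17 genes that arrest the cell cycle or feed back on p53 (Btg2 and Trp53inp1), 3 of 15 of metabolism and stress (Ddit4, Ephx1 and Lpin1) and 1 of 6 noncoding RNA genes (Pvt1), with 0 of 16 genes of cell death and 0 of 8 of DNA repair. Long genes have more room for a peak, and no adjustment for length was made. None of the 77 genes on the interferon, nucleic acid sensing, antigen presentation, repeat silencing and cell type marker lists had one, by either rule. At the share of 0.628% over all RefSeq genes, lists of this size would hold few or none. No contrast is therefore read from these counts of 0, or from those for cell death and DNA repair.

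Near genes that restrain the cell cycle or feed back on p53, some of these peaks lay within 10 kb of a promoter peak. For Btg2, an antiproliferative gene, the peak was 532 bp at chr1:134074540-134075071, within the RefSeq span though annotated intergenic. A MER2 element, a DNA transposon, covered 38.7% of it, and a WT-specific promoter peak of 1056 bp lay 4008 bp away. For Trp53inp1, a stress-induced p53 cofactor, a peak of 298 bp lay 2888 bp from the gene at chr4:11153256-11153553. An ID_B1 covered 39.9% of it, and 234 bp of it were shared with a KO peak. The nearest WT-specific peak was an intergenic LTR peak of 250 bp at 406 bp. For Mdm2, the ubiquitin ligase that degrades p53, a peak of 1369 bp lay 6560 bp from the gene at chr10:117717318-117718686. Its B2_Mm2 covered 13.1% of it and did not hold the midpoint, and the nearest WT-specific peak was an Mdm2 promoter peak of 361 bp at 5491 bp. Phlda3, an inhibitor of AKT signalling, is on the cell death list instead. One peak of 1275 bp with a MER5A and one of 660 bp with a PB1D11 lay 5391 and 9705 bp from Phlda3. No KO peak overlapped those at Btg2, Mdm2 or Phlda3. Mdm2 and Phlda3 are beyond the 5 kb limit and not among the 6 genes.

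Among metabolic and stress targets, Ephx1, which hydrolyses epoxides, had 2 intronic peaks. One, of 487 bp at chr1:181009749-181010235, carried a (GA)n over 10.7% of its length. The other, of 1857 bp at chr1:181015078-181016934, was the fourth longest of the 360, with an L2 over 50 bp, 2.69% of it. A repeat-free WT-specific peak of 528 bp in the same gene lay 373 bp from the first. Ddit4, an inhibitor of mTORC1, had a peak of 596 bp 766 bp outside its span at chr10:59948314-59948909, whose midpoint lay in a B1F. Lpin1, a phosphatidate phosphatase of lipid synthesis, had an intronic peak of 396 bp at chr12:16587774-16588169 whose midpoint lay in a B1F1, and another WT-specific peak of 355 bp lay 281 bp away. Of the noncoding RNA genes, Pvt1, which neighbours Myc, had a peak of 829 bp at chr15:62038780-62039608 with a (TCTG)n over 6.27% of its length. None of these 5 peaks was overlapped by a KO peak.

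The 10 longest peaks measured 1291 to 2641 bp. Repeats covered only 2.69% to 35.9% of each, and in all 10 the midpoint lay outside the repeat. The longest, at chr4:137447262-137449902, was intergenic with a MIRb and a (GGA)n over 11.9% of it, and a KO peak covered 1485 of its 2641 bp. The second, at chr5:91109269-91111533, measured 2265 bp with an ID_B1 over 6.76%, lay 29.2 kb from the start of Areg, which encodes the growth factor amphiregulin, and shared 198 bp with a KO peak. The third, of 2062 bp at chr11:94273910-94275971, carried an L2b and had no KO peak. The rest included peaks in introns of Mtmr10 (1416 bp), a myotubularin-related gene, of Epha2 (1317 bp), an ephrin receptor, and of Hrh1 (1291 bp), the histamine H1 receptor, where a KO peak shared 197 bp. Of the 10 longest peaks, 3 were overlapped by a KO peak.

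Within single classes, the 3 longest simple repeat peaks were a (GA)n peak of 1122 bp in an intron of Bcl2l11, which encodes the death-promoting protein BIM, a (GA)n peak of 1022 bp in Zbtb20, a zinc finger repressor, and an intergenic (CA)n peak of 996 bp. Repeats covered 5.62%, 14.2% and 18.3% of them. The longest DNA transposon peak was a MER20 peak of 1303 bp on chromosome 4. The third, a MER2 peak of 1273 bp in Pepd, which cleaves dipeptides ending in proline, had its midpoint inside the element. The 3 longest satellite peaks measured 825, 442 and 406 bp, the second in an intron of Pla2r1, a phospholipase A2 receptor. The peak with the most repeats, on chromosome 12, was 670 bp long, carried an L1M2, a B1_Mus2 and 2 GAAA tracts, and was 81.6% repeat.

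The deposited gene names fitted RefSeq in most cases. Of the 195 peaks annotated to a gene, 165 had a name found in RefSeq. Of those, 157 overlapped that gene's RefSeq span, and 6 lay more than 5 kb from it. A further 21 peaks annotated intergenic lay inside a RefSeq span.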

How the data were processed

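CUT&RUN with a p53 antibody gave 1 KO and 1 WT peak list, each for 2 samples. Per the file headers, the lists the authors deposited hold interval coordinates alone, without a score, fold, signal or p-value. Tools listed in the submitters' processing notes are deepTools, MACS2, Bowtie2 and fastp, and the build is mm10; versions, thresholds, the rule behind WT-specific peaks, the annotation tools and whether replicates were pooled before peak calling were not found in the sources used here. Repeats can draw reads that map to several places, and how such reads were treated is likewise not stated. Read depth is unknown.

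Starts were read as 0-based and are printed 1-based. Overlaps between peaks needed 1 bp; repeat overlaps are those of the deposited annotation, of which none in the 360 peaks was under 50 bp. Intervals are 95% Clopper-Pearson (exact binomial) for shares and 95% order-statistic for medians; both cover counting error over peaks only, as do two-sided Fisher's exact tests with Benjamini-Hochberg adjustment over 9 comparisons, called at 0.05. The 9 include the length comparison with repeat-free peaks, which is given above without a test. The calculation was tested on simulated data. Gene spans and start sites came from RefSeq (GRCm38.p6, the assembly of mm10). No start site entry was used for 8 of the peaks, all on chromosome 18, and entries were incomplete on other chromosomes. Python 3.11.15, pandas 2.3.3, numpy 2.4.6 and scipy 1.17.1 were used.

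The members, gene lists and tests were chosen with earlier results of these data known. Named were the 10 longest peaks, the 3 longest per class, the 5 with most repeats, those at listed genes or nearest to a listed p53 target, and repeat names in at least 5 peaks; the p53 motif search was limited to the 1 stretch with sequence.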

Additional observations from a re-analysis of the deposited data

How the results depend on the processing

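No paired analysis was possible because each list is 1 set of intervals per genotype, so replicates could neither be paired nor left out. Each recomputed p-value was adjusted among the main p-values of the other comparisons, not within its own setting. An adjusted p close to 0.05 therefore depends on them. Of 55 recomputed share comparisons, 45 stayed on the same side of 0.05 in adjusted p, and 3 turned in direction. The odds ratio for at least 500 bp against LTR peaks was 0.85 at 1000 bp, 0.826 without peaks on simple and low complexity repeats alone and 0.812 without tract peaks, with no call left; against repeat-free peaks it was 0.619, reversed, where repeats had to cover 50%. For a neighbour within 10 kb against LTR peaks it was 0.762 within 50 kb, 0.848 without simple and low complexity peaks, 0.711 without chromosomes X, Y and M and 0.795 without tract peaks, with no call left. For intronic peaks against repeat-free ones it was 0.708 with exons and 3′ UTRs included and 0.503 at 50% cover, both now called. Against repeat-free peaks, the uncalled odds ratio for a neighbour was 0.803 within 50 kb and 0.625 at 50% cover. The 50% cover setting could not be applied to the share of peaks with that cover. The KO overlap kept its direction in all 8 settings, with odds ratios of 2.02 to 4.00. At 50% cover its adjusted p of 0.0489 (Fisher's exact test, unadjusted p = 0.0349) was that of the main neighbour comparison. No call is read from that setting, nor from the one against repeat-free peaks. The number of peaks was 149 with the midpoint in a repeat and 108 with 50% cover, against 360, and 277 without simple and low complexity peaks. Listed p53 genes numbered 6 by RefSeq span, against 3 by deposited name, and 13 by name with promoter and 5′ UTR peaks on non-LTR repeats added. Leaving out tract peaks, KO-overlapped peaks or adding promoter peaks was chosen after the data were seen. When peaks with several repeats were left out, median midpoint positions of all 29 names moved by less than 1 SD, a wide bound: B1_Mus2 was at 271.5 bp (1 peak left) against 13.75 bp, MIR3 at -6.25 against -227.5 and B2_Mm2 at -342 (2 peaks left) against -160.5, and B1_Mur4 at -6.75 (2 peaks left) against 16. Several names had no peak to leave out. Without scores or depth the lists hold no measure of binding strength.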

Other observations

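Copies of small RNA genes made up a small set of 5 peaks, named here after their values were seen. A BC1_Mm element, related to the neuronal RNA BC1, lay in an intronic peak of 918 bp in Myh9, the heavy chain of a nonmuscle myosin, and in one of 692 bp in C2cd2. A copy of 5S rRNA lay in an exonic peak of 970 bp in Col12a1, a collagen, a U6 copy in an intergenic peak of 363 bp, and a glycine tRNA copy in an intergenic peak of 446 bp. Repeats covered 11.3 to 18.2% of these 5, and no KO peak overlapped any of them.

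Outside the gene lists, some single intronic peaks are given as examples, picked by hand from the gene names after their values were seen. Bcl2l1, which encodes the survival protein BCL-XL, had a MIR3 peak of 908 bp and a MIRb peak of 198 bp. Foxo3, a forkhead factor that opposes growth signals, had a B3 peak of 902 bp, Rptor, a subunit of mTORC1, an L1MC4a peak of 903 bp, and Slc2a1, a glucose transporter, a peak of 917 bp with a MIR and a C-rich stretch. Nuak2, a kinase related to AMPK, had a MIRb peak of 974 bp. Vmp1 and Atg7, both needed for autophagy, had peaks of 353 and 389 bp, with an RSINE1 and with L1MC1 pieces. No KO peak overlapped the peaks named so far in this paragraph, whereas KO peaks shared 279 bp with a peak in Msn, 228 bp with one in Syn3 and 189 bp with one in Lrp1, genes picked in the same way. Inf2, a formin that shapes actin, had a pair of neighbouring peaks of 680 and 551 bp with 231 bp between them, one with a B2_Mm2 and one with an ID_B1. Of the gene names, 10 had at least 2 peaks, with Syn3, a synapsin gene, at 3.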
